A study of Mus musculus with 12 samples.

Results

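The GTPases of immunity-associated proteins (GIMAPs) are a family of small guanine nucleotide-binding proteins of vertebrate lymphocytes. The members were chosen by name: the mouse genes Gimap1, Gimap3, Gimap4, Gimap5, Gimap6, Gimap7, Gimap8 and Gimap9, which are 8 of the 49671 genes in the deposited count files. RNA had been sequenced from regulatory T cells (Tregs), the Foxp3-expressing CD4 T cells that restrain immune responses. All mice were 8-week-old C57BL/6 animals, either wild type (WT) or labelled as mutant for Gclc, the gene of the catalytic subunit of glutamate-cysteine ligase, which makes the precursor of glutathione. The 4 groups of 3 libraries were sorted Tregs taken fresh from WT mice (WT nTregs, libraries 1, 2 and 3) or mutant mice (mutant nTregs, libraries 1, 2 and 4), and Tregs differentiated in culture from naive CD4 T cells of WT mice (WT iTregs, libraries 1, 2 and 3) or mutant mice (mutant iTregs, libraries 1, 2 and 4). The labels do not name the mutant allele or a Cre driver, and the titles write the mutant libraries as KO. The labels leave unsaid whether the 3 libraries of each group stem from different mice or cultures. The p-values therefore measure the spread between these libraries, and that spread may be technical.

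GIMAP proteins share a GTP-binding domain related to those of septins and dynamins, and several sit on membranes of lysosomes, mitochondria or the endoplasmic reticulum. The family is known for keeping peripheral T cells alive in the resting state: animals that lack Gimap5 lose T cells, Gimap1 is needed for mature T and B cells, and Gimap6 binds ATG8-type proteins of the autophagy pathway. Gimap3 and Gimap5 have been tied to proteins of the BCL2 family, and Gimap5 to restraint of GSK3 beta. Gimap4 has been linked to the execution of T cell apoptosis, Gimap7 dimerises to turn over GTP, and Gimap8 is unusual in carrying several GTPase domains in a row.

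All 8 genes lie in 1 cluster on chromosome 6 (GRCm38, chr6:48647234-48770851), 123.62 kb long, with 6 genes on the plus strand and 2 on the minus strand. In order along the chromosome they are Gimap8 (ENSMUSG00000064262, 48647234 to 48660875), Gimap9 (ENSMUSG00000051124, 48676129 to 48679114) and Gimap4 (ENSMUSG00000054435, 48684549 to 48692060), all on the plus strand. Gimap6 (ENSMUSG00000047867, 48701582 to 48708225, minus strand) and Gimap7 (ENSMUSG00000043931, 48718621 to 48724636, plus strand) follow. Gimap1 (ENSMUSG00000090019, 48739054 to 48743795, plus strand), Gimap5 (ENSMUSG00000043505, 48746197 to 48754210, plus strand) and Gimap3 (ENSMUSG00000039264, 48764464 to 48770851, minus strand) end the cluster. Each is annotated as protein coding, and counts cover all exons, untranslated ones included. In the GENCODE M21 transcripts, the longest coding sequence of Gimap8 is 2064 bases without its stop codon, and those of the other 7 genes are 873 to 984 bases.

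How well reads tell the members apart was read from the same transcripts. Between members, only Gimap3 and Gimap5 share stretches of 50 bases: 190 such stretches, which are 7.52% of those of Gimap3 and 4.53% of those of Gimap5. The longest identical coding run of this pair is 140 bases, against at most 17 bases in any other pair. It follows with 45 bases on each side, in lower case, with capitals at the 4 places where the genes differ. Positions are counted from the first base of the start codon, 130 to 359 in Gimap3 and 142 to 371 in Gimap5.
Gimap3: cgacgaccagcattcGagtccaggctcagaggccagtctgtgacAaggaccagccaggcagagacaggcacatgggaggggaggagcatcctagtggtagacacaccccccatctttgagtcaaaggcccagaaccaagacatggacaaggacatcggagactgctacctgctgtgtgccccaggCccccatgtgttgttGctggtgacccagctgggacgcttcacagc
Gimap5: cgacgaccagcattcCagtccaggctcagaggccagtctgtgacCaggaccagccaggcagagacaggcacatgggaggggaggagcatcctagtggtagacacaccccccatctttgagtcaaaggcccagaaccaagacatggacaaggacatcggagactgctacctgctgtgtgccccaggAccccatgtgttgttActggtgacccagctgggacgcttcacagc
A read that lies wholly within the identical run can align equally well to both genes, while a read over a differing base can be told apart. The authors counted reads with several alignments at each gene, so part of the count of either gene is uncertain. Same-strand exons of Gm28053, a locus annotated as running from Gimap7 into Gimap5, overlap 6.44% of the exon bases of Gimap1, 3.69% of Gimap5 and 3.48% of Gimap7. The antisense transcript Gimap1os overlaps 1107 exon bases of Gimap1 on the other strand, and the counting used strand.

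Total counts per library ran from 28707579 to 39886130. Replicates varied beyond counting noise, with a chi-square per degree of freedom of 4.48 to 51.47 between pairs. Levels are given as CPM, counts per 1000000 counts of the TMM-scaled library. Tests are edgeR quasi-likelihood F-tests over 17977 genes, two-sided, adjusted by Benjamini-Hochberg, and a gene was called below an adjusted p of 0.05. Gclc ranged from 70.8 to 79.0 CPM in WT nTregs and from 41.7 to 45.8 CPM in mutant nTregs (log2 fold change -0.81 ± 0.07 SE), and in iTregs from 51.9 to 56.5 and from 18.8 to 21.0 CPM (-1.46 ± 0.08). Foxp3 was lower in both mutant groups (-1.70 ± 0.15 and -1.66 ± 0.15), and the 8 Treg markers summed to 1994 to 3198 CPM over the 12 libraries. Mutant nTreg library 1 stood apart in markers of CD8 T and NK cells: their summed level was 1603 CPM there, 204 and 176 CPM in mutant libraries 2 and 4, and 64.1 to 75.6 CPM in WT nTregs, and each of the 10 markers was highest in library 1 among the mutant nTregs. All 10 B cell markers were present in nTregs, at a summed 1491 to 1699 CPM in WT and 955 to 1623 CPM in mutant libraries, against 60.6 to 71.2 and 43.0 to 53.8 CPM in WT and mutant iTregs.

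In WT nTregs the family was abundant. Per kilobase of exon, Gimap3 averaged 460 ± 20 CPM (SD, n = 3) and ranked 214 of the 17977 tested genes, and Gimap4 averaged 433 ± 4.18 and ranked 230. Gimap8 (150 ± 5.50 CPM per kb), Gimap6 (135 ± 5.76) and Gimap9 (91.1 ± 1.55) came next. Gimap7 (41.9 ± 1.69), Gimap1 (40.1 ± 1.94) and Gimap5 (32.1 ± 2.29) were the lowest by this measure. The means of neighbours in this order lay apart by more than their SDs, except those of Gimap7 and Gimap1. Gimap5, the member best known from loss of function, was thus the least abundant per length in these cells, and ranked 2048 among all tested genes.

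**Figure D1:**
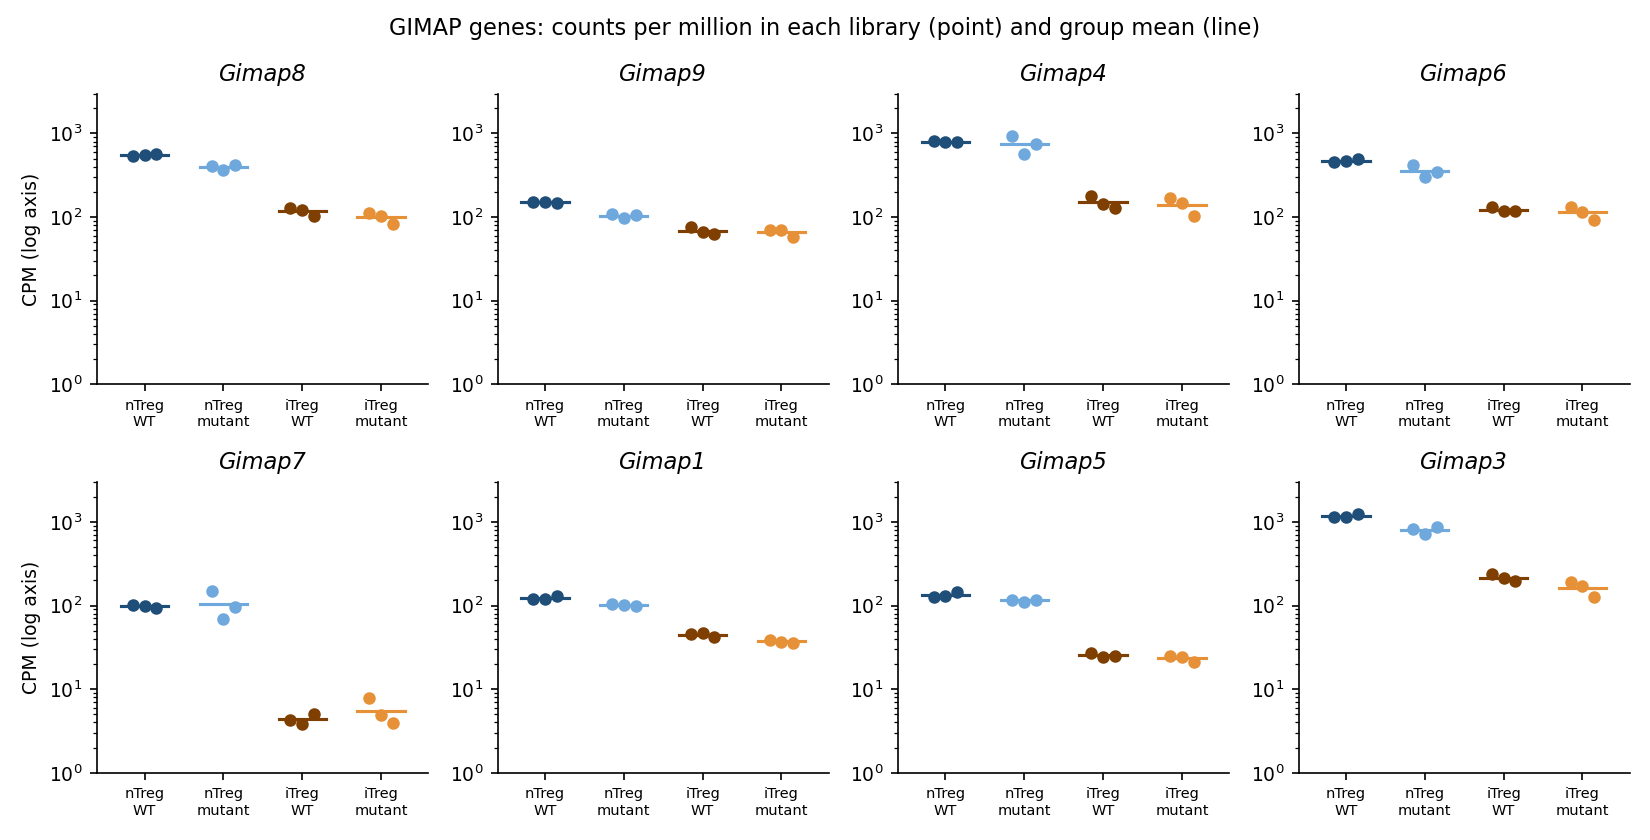
Level of each GIMAP gene in each of the 12 libraries, as CPM on a log axis, with a panel per gene in chromosomal order, points for libraries and a line for the mean of each group of 3. Every gene has its nTreg points above its iTreg points, and Gimap7 drops the farthest, from 93.1 to 101 CPM in WT nTregs to 3.78 to 5.11 CPM in WT iTregs.

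The first comparison asked how cultured, induced Tregs differ from fresh Tregs in WT mice. All 8 GIMAP genes fell, each by at least 2-fold and with no overlap between the 3 iTreg and 3 nTreg libraries. Of all tested genes, 35.7% were called lower in this comparison, 17.9% were lower by at least 2-fold, and 39.9% were lower with no overlap. The members' median log2 fold change was -2.31, beside -0.02 for all tested genes. In bulk RNA, fewer cells of a kind and less RNA per cell cannot be told apart.

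Gimap7, the dimerising GTPase, fell the most. Its level was 101, 98.8 and 93.1 CPM in the WT nTreg libraries and 4.28, 3.78 and 5.11 CPM in the WT iTreg libraries. Behind these low values were 132 to 189 counts per library. The fitted fall was 22.2-fold (log2 fold change -4.47 ± 0.29 SE, edgeR adjusted p = 5.98e-08), far beyond the spread of either group.

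Gimap3 and Gimap5, the pair tied to BCL2 family proteins, fell by nearly the same factor from very different levels. Gimap3 went from 1152, 1160 and 1245 CPM to 241, 212 and 194 CPM, a 5.50-fold fall (log2 fold change -2.46 ± 0.14, edgeR adjusted p = 2.02e-08). Gimap5 went from 127, 129 and 144 CPM to 27.3, 24.2 and 25 CPM, a 5.23-fold fall (-2.39 ± 0.08, edgeR adjusted p = 5.98e-10). Because of the shared stretch shown above, the values of the pair are not fully independent. Gimap4, linked to T cell apoptosis, fell 5.28-fold, from 801, 786 and 797 CPM to 178, 145 and 128 CPM.

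Gimap8, with its several GTPase domains, went from 533, 556 and 574 CPM to 127, 122 and 104 CPM, and Gimap6, the ATG8-binding member, from 455, 466 and 494 CPM to 131, 119 and 118 CPM. Their falls were 4.71-fold and 3.84-fold. Gimap1 and Gimap9 fell the least. For Gimap1, needed in mature lymphocytes, the WT nTreg libraries held 120, 119 and 130 CPM and the WT iTreg libraries 45.6, 46.7 and 42.2 CPM (log2 fold change -1.46 ± 0.07, edgeR adjusted p = 3.78e-09). Gimap9 stood at 152, 150 and 147 CPM in WT nTregs and 75.6, 67.0 and 61.8 CPM in WT iTregs, a 2.20-fold fall (-1.13 ± 0.09, edgeR adjusted p = 3.99e-07). The falls of the 8 members thus ran from 2.20-fold to 22.2-fold, and each was called in the fits that left out 1 library and under every other setting tried.

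**Figure D2:**
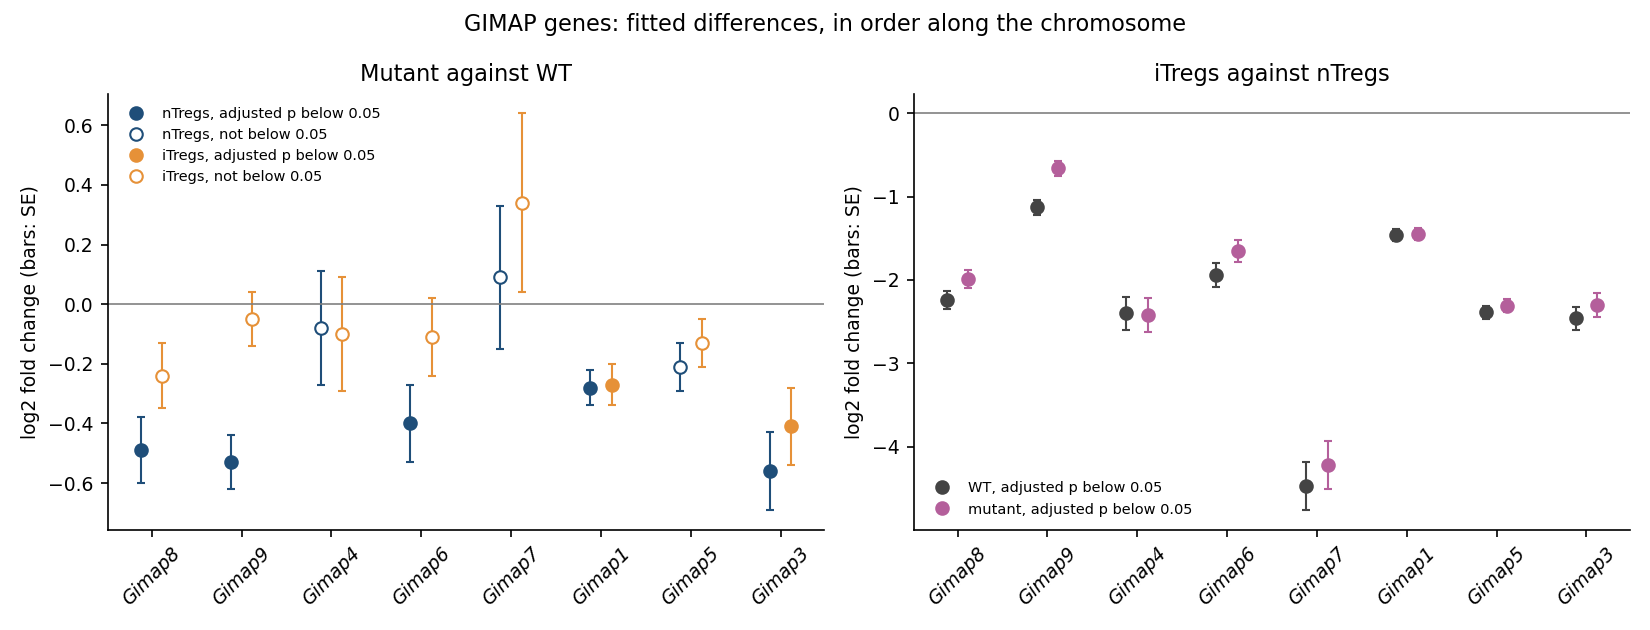
Fitted log2 fold changes of the 8 GIMAP genes with their SE, for mutant against WT in nTregs and iTregs (left) and for iTregs against nTregs in WT and mutant mice (right), filled where the adjusted p was below 0.05. On the right all points lie below 0, between -0.66 and -4.47, while on the left the values lie between -0.56 and 0.34 with 7 of 16 filled.

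Because the members fell by different factors, the make-up of the family's transcripts changed. The summed level was 3509 ± 99.3 CPM (SD, n = 3) in WT nTregs and 749 ± 75.7 CPM in WT iTregs. Per length, Gimap9 gave 6.59% of the summed level in WT nTregs and 14.0% in WT iTregs, and its share was 6.29% to 6.78% in the nTreg libraries and 13.9% to 14.1% in the iTreg libraries. Gimap7 gave 3.04% in WT nTregs and 0.645% in WT iTregs. Gimap3 and Gimap4 together held the larger part in all 12 libraries, and Gimap8 kept 10.8% and 10.7%.

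**Figure D3:**
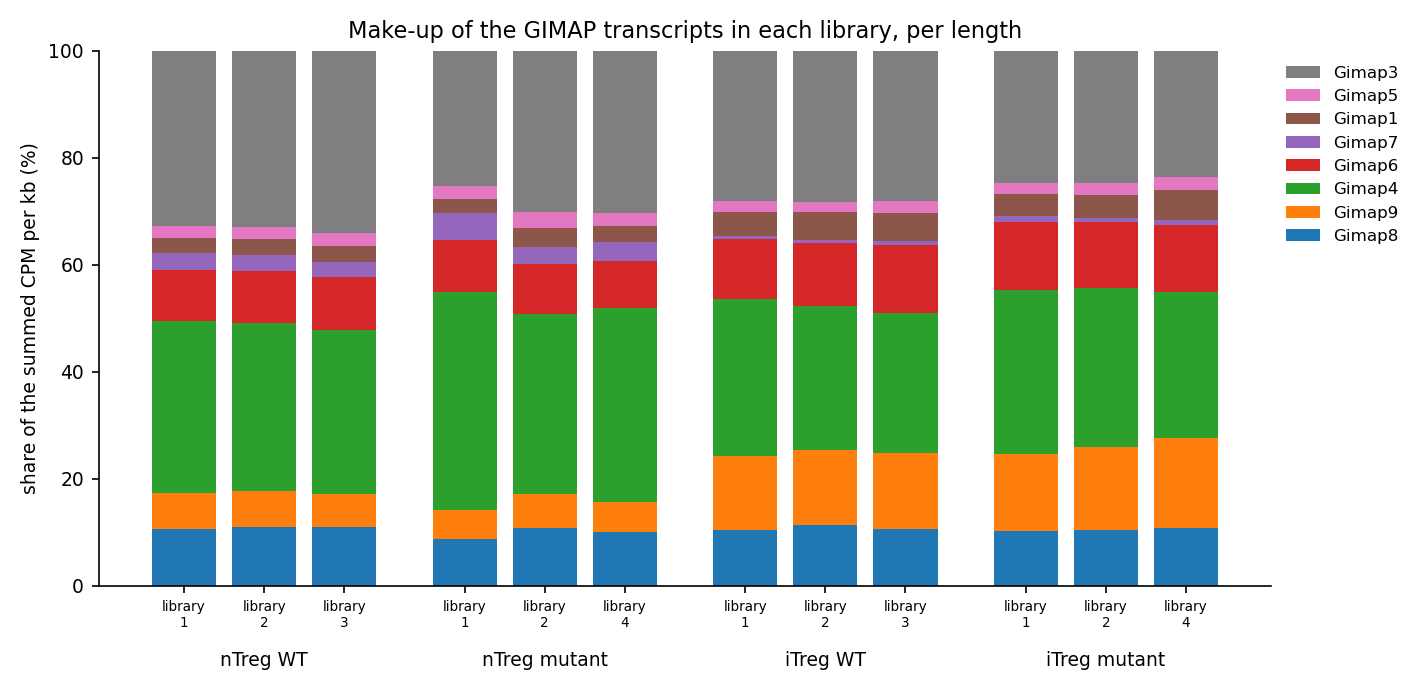
Share of each GIMAP gene in the family's summed CPM per kilobase, in percent, as stacked bars for the 12 libraries in 4 groups. The Gimap9 segment is wider in the iTreg libraries (13.9% to 16.9%) than in the nTreg libraries (5.37% to 6.78%), and the Gimap7 segment is a thin line in iTregs (0.556% to 1.14%).

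The same contrast was made in the mutant mice. All 8 genes were called lower in mutant iTregs than in mutant nTregs, 7 of them by at least 2-fold, with no overlap between the libraries. The background was 35% of tested genes called lower, 18.5% lower by at least 2-fold and 35.2% lower with no overlap. The members' median log2 fold change was -2.14, beside -0.02 for all tested genes. Gimap7 fell again the most, from 148, 69.8 and 94.8 CPM to 7.88, 4.86 and 3.92 CPM (log2 fold change -4.22 ± 0.29, edgeR adjusted p = 8.46e-08). Gimap9 fell the least, from 110, 96.2 and 105 CPM to 70.7, 69.3 and 57.4 CPM (-0.66 ± 0.09, edgeR adjusted p = 4.39e-05). With library size alone in place of TMM, the median of all genes moved to -0.20 in this comparison and that of the members to -2.33.

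Levels of other cell types' markers moved with the contrast between iTregs and nTregs. The 10 B cell markers were all called lower in iTregs of both genotypes, with Cd22 at 0 in both iTreg groups and Pax5 and Fcer2a at 0 in WT iTregs. Summed endothelial markers were 128 to 145 CPM in WT nTregs and 48.5 to 53.4 CPM in WT iTregs, with Emcn and Cldn5 at 0 in all groups. Only 3 of these 10 markers were tested, and they went both ways. Pecam1 (-1.43 ± 0.13) and Esam (-2.33 ± 0.64) were lower in WT iTregs, and Egfl7 was higher (2.09 ± 0.37). Summed myeloid markers were 51.3 to 80.4 CPM in nTregs and 19.4 to 23.3 CPM in iTregs, and summed erythroid markers 112 to 904 CPM and 0 to 0.189 CPM. Summed CD8 and NK markers were 64.1 to 75.6 CPM in WT nTregs and 36.6 to 55.5 CPM in WT iTregs. Gzma, Gzmk and Ncr1 of them were at 0 in iTregs. In WT iTregs against WT nTregs, 2 of these 10 markers were called lower and none higher. In the mutant, 8 were called lower and none higher. The part of these cells in the GIMAP levels was not tested. The T cell identity genes, such as Cd3e and Lck, summed to 6775 to 7178 CPM in WT nTregs and 4811 to 4938 CPM in WT iTregs, with a median log2 fold change of -0.35 over the 15 genes.

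The second comparison asked what the Gclc mutation changed in fresh Tregs. Gimap1, Gimap3, Gimap6, Gimap8 and Gimap9 were called lower in mutant nTregs, by 1.21-fold to 1.48-fold, and no member was called higher, by edgeR or DESeq2 or at an unadjusted p below 0.05. Of all tested genes, 15.6% were called lower and 19.3% higher. The members' median log2 fold change was -0.34, beside 0.04 for all tested genes. The groups did not overlap for 6 members, the 5 called and Gimap5, all lower in the mutant, beside 22.6% of all tested genes lower with no overlap.

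Gimap3 changed the most among the called genes. Its WT nTreg libraries held 1152, 1160 and 1245 CPM, and the mutant ones 812, 719 and 878 CPM (log2 fold change -0.56 ± 0.13, edgeR adjusted p = 0.00669). Gimap9 went from 152, 150 and 147 CPM to 110, 96.2 and 105 CPM (-0.53 ± 0.09, edgeR adjusted p = 0.00134). For both genes the highest mutant library lay well below the lowest WT library.

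Gimap8 was at 533, 556 and 574 CPM in WT and 404, 368 and 414 CPM in mutant nTregs (-0.49 ± 0.11, edgeR adjusted p = 0.00475). Gimap1, the essential survival gene of mature lymphocytes, went from 120, 119 and 130 CPM to 104, 101 and 100 CPM, a small fall with tight replicates (-0.28 ± 0.06, edgeR adjusted p = 0.00580). The calls of Gimap1, Gimap3, Gimap8 and Gimap9 were made in each of the 12 fits that left out 1 library. Gimap6 was less firm: its libraries read 455, 466 and 494 CPM in WT and 421, 305 and 343 CPM in the mutant (-0.40 ± 0.13, edgeR adjusted p = 0.0303). Its adjusted p rose to between 0.0584 and 0.0775 when WT nTreg library 1, 2 or 3 or mutant nTreg library 2 or 4 was left out.

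The 3 members that were not called differed in kind. Gimap5 was at 127, 129 and 144 CPM in WT and 117, 111 and 118 CPM in mutant nTregs, so its groups did not overlap, and it missed the threshold (log2 fold change -0.21 ± 0.08, edgeR adjusted p = 0.0576). It passed with RLE scaling, with a filter of 1 CPM in 3 libraries and with DESeq2, at adjusted p-values of 0.0365, 0.0475 and 0.018. It stayed uncalled with library size alone, no filter, the compared libraries alone and a replicate block, at edgeR adjusted p-values of 0.0583 to 0.247. Of the 12 fits that left out 1 library, 2 called it. Gimap4 and Gimap7 were spread over the mutant libraries instead. Gimap4 was at 931, 573 and 747 CPM in the mutant, around the WT values of 786 to 801 CPM (-0.08 ± 0.19, edgeR adjusted p = 0.759). Gimap7 was at 148, 69.8 and 94.8 CPM in the mutant, around WT values of 93.1 to 101 CPM (0.09 ± 0.24, edgeR adjusted p = 0.794).

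Gimap4, Gimap6 and Gimap7 each had a highest mutant value in library 1 that stood clear of the other mutant libraries. It is the nTreg library with 1603 CPM of CD8 and NK cell markers. Without that library, Gimap7 turned from 0.09 to -0.22 ± 0.18 and Gimap4 went from -0.08 to -0.24 ± 0.17, neither of them called. The same step moved Gimap6 from -0.40 to -0.51 ± 0.12 (edgeR adjusted p = 0.00618), and 5 members were called lower as before. The part of those cells in the GIMAP levels of that library was not tested. The other 5 genes moved by no more than 0.02 on the log2 scale without that library.

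**Figure D4:**
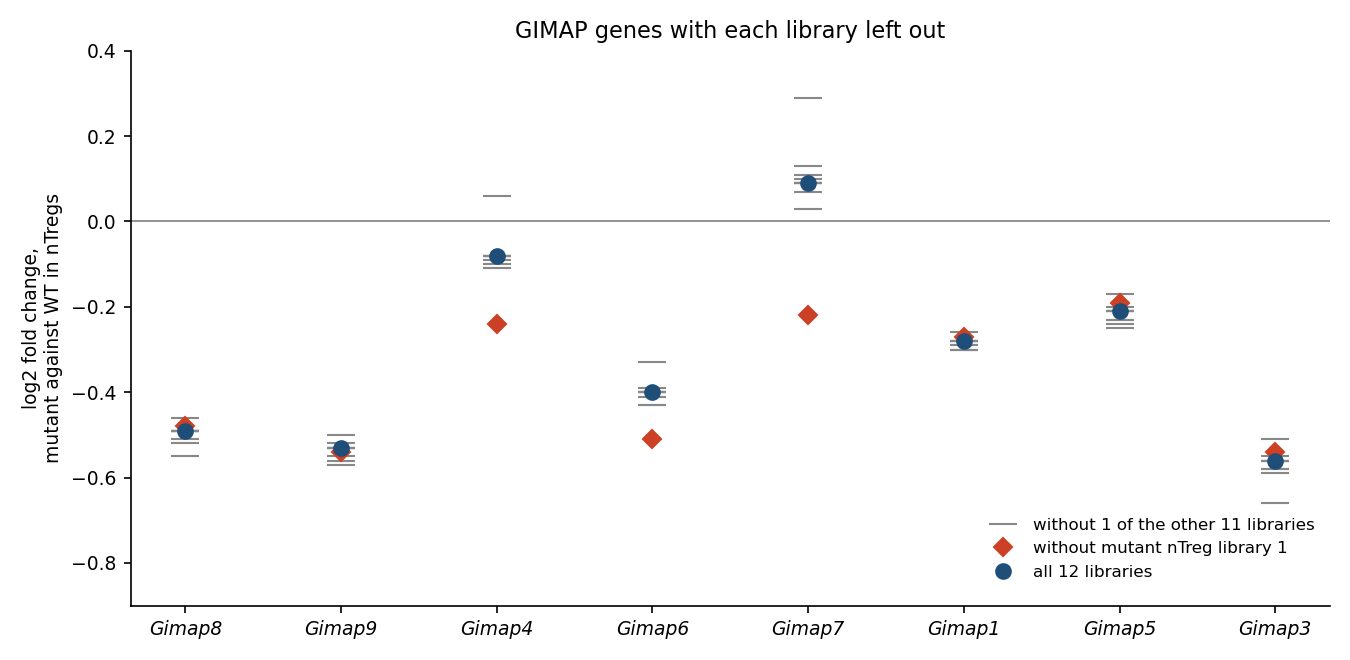
Log2 fold change of each GIMAP gene for mutant against WT in nTregs, from the fit of all 12 libraries (circles), without mutant nTreg library 1 (diamonds) and without each of the other 11 libraries (dashes). Gimap4, Gimap6 and Gimap7 move down without that library, Gimap7 to -0.22, while Gimap1, Gimap3, Gimap5, Gimap8 and Gimap9 stay below 0 in all fits.

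The third comparison was the same contrast in iTregs. Gimap1 and Gimap3 were called lower in mutant iTregs, and none higher by edgeR or DESeq2 or at an unadjusted p below 0.05, beside 11.4% of all tested genes lower and 14% higher. The members' median log2 fold change was -0.12, beside 0.04 for all tested genes. Gimap1 was at 45.6, 46.7 and 42.2 CPM in WT and 39.1, 36.7 and 35.9 CPM in mutant iTregs (-0.27 ± 0.07, edgeR adjusted p = 0.0124), and the groups did not overlap. Gimap3 was at 241, 212 and 194 CPM in WT and 189, 173 and 126 CPM in the mutant (-0.41 ± 0.13, edgeR adjusted p = 0.0425). Gimap1 and Gimap3 were the only members without overlap, beside 19.7% of all tested genes lower with no overlap.

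Both iTreg calls depended on single libraries. Gimap1 rose to an adjusted p of 0.0536 without WT iTreg library 1 and 0.0623 without WT iTreg library 2. Gimap3 missed the threshold without mutant iTreg library 2 or 4, WT iTreg library 1 or 2, or WT nTreg library 1 or 2, at 0.0569 to 0.164, and its fold change fell to -0.25 without mutant iTreg library 4. That library held the lowest value of the 12 for 7 of the 8 members, the exception being Gimap7.

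The other 6 members overlapped between WT and mutant iTregs. Gimap8 was at 127, 122 and 104 CPM in WT and 113, 104 and 82.3 CPM in the mutant (-0.24 ± 0.11, edgeR adjusted p = 0.127). Gimap5, Gimap6, Gimap4 and Gimap9 had log2 fold changes of -0.13 ± 0.08, -0.11 ± 0.13, -0.10 ± 0.19 and -0.05 ± 0.09. Gimap7 had 0.34 ± 0.30 at its low iTreg level, with 7.88 CPM in mutant library 1 and 4.86 and 3.92 CPM in mutant libraries 2 and 4. Without mutant iTreg library 1 its fold change was 0.0.

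Whether the mutation acted differently in the 2 kinds of Treg was tested as the iTreg effect minus the nTreg effect. Gimap9 was the 1 member called, beside 6.12% of all tested genes called higher and 13.3% in either direction. Its WT and mutant libraries lay apart in nTregs, at 147 to 152 and 96.2 to 110 CPM, and overlapped in iTregs, at 61.8 to 75.6 and 57.4 to 70.7 CPM. The difference of the effects was 0.48 ± 0.13 (edgeR adjusted p = 0.0326). It was called in 5 of the 12 fits that left out 1 library, with values of 0.41 to 0.58 and adjusted p-values of 0.0101 to 0.0843 over the 12. Leaving out mutant iTreg library 1 or 2, WT iTreg library 2 or 3, mutant nTreg library 2, or WT nTreg library 1 or 2 ended the call. So did scaling by library size alone, which moved the median difference of all genes to -0.14 and gave Gimap9 0.34 (edgeR adjusted p = 0.0699). Of the other 7 members, the differences lay between -0.02 (Gimap4) and 0.29 (Gimap6), with SEs of 0.09 to 0.38, and none was called, which does not show that the effects are alike.

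The order of the 4 groups was WT nTregs, mutant nTregs, WT iTregs and mutant iTregs for 7 members. Gimap7 had the mutant mean above the WT mean in both cell kinds, 104 ± 39.7 against 97.5 ± 3.93 CPM in nTregs and 5.55 ± 2.07 against 4.39 ± 0.671 CPM in iTregs, with overlap in both. Only Gimap1 and Gimap3 had all 4 groups apart from their neighbours in the order. How many of all tested genes share this order or this separation was not counted, so both are descriptions of the members. The summed level of the family was 2730 ± 358 CPM in mutant nTregs and 648 ± 115 CPM in mutant iTregs.

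Genes around the cluster were read in the same fits. Within 250 kb of the outermost members the files list 18 other protein-coding genes, of which 11 were tested. In WT iTregs against WT nTregs, 8 of the 11 were lower and 3 higher, beside 35.7% of all tested genes called lower. Of the 12486 calls among the 17977 tested genes, 48.6% were higher. The 8 lower ones include Gm28053, which shares exon bases with members. Tmem176a and Tmem176b, membrane protein genes beyond Gimap3, had larger fitted falls than any GIMAP gene (log2 fold changes -5.40 ± 0.34 and -5.26 ± 0.33). The WT iTreg libraries held only 10 to 22 counts of Tmem176a and 17 to 26 of Tmem176b, so the size of these falls is uncertain. Just before Gimap8, Repin1 (0.89 ± 0.22), Gm44965 (1.01 ± 0.41) and Zfp775 (0.36 ± 0.15) were higher, and AI854703, the nearest gene on that side, was lower (-0.77 ± 0.20). Gm44965 rested on 3 to 6 counts per library in WT nTregs and 7 to 14 in WT iTregs. Its annotated span overlaps that of Repin1 on the same strand. Farther out, Krba1, Zfp467, Sspo and Lrrc61 were lower, by -0.74 to -2.84.

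Inside the cluster, Gm28053 was lower in WT iTregs (-1.61 ± 0.08). It shares 198, 153 and 81 same-strand exon bases with Gimap1, Gimap5 and Gimap7. Reads of several genes were counted, so its values are not independent of those of these members. The non-coding genes Gimap1os (-3.25 ± 0.18) and 4833403J16Rik (-2.59 ± 0.11) were lower too, while Gm44226 had -0.24 ± 0.34 and was not called. These 3 non-coding genes were named after their values were seen. For mutant against WT in nTregs, Krba1 (-0.36 ± 0.07), Zfp467 (-0.57 ± 0.15) and Lrrc61 (-0.35 ± 0.10) of the 11 neighbours were lower and Repin1 (1.40 ± 0.21) and Gm44965 (1.17 ± 0.40) higher. Of all tested genes, 15.6% were lower and 19.3% higher in that comparison. In iTregs, Krba1 and Lrrc61 were lower and no neighbour was higher, beside 11.4% and 14% of all tested genes.

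**Figure D5:**
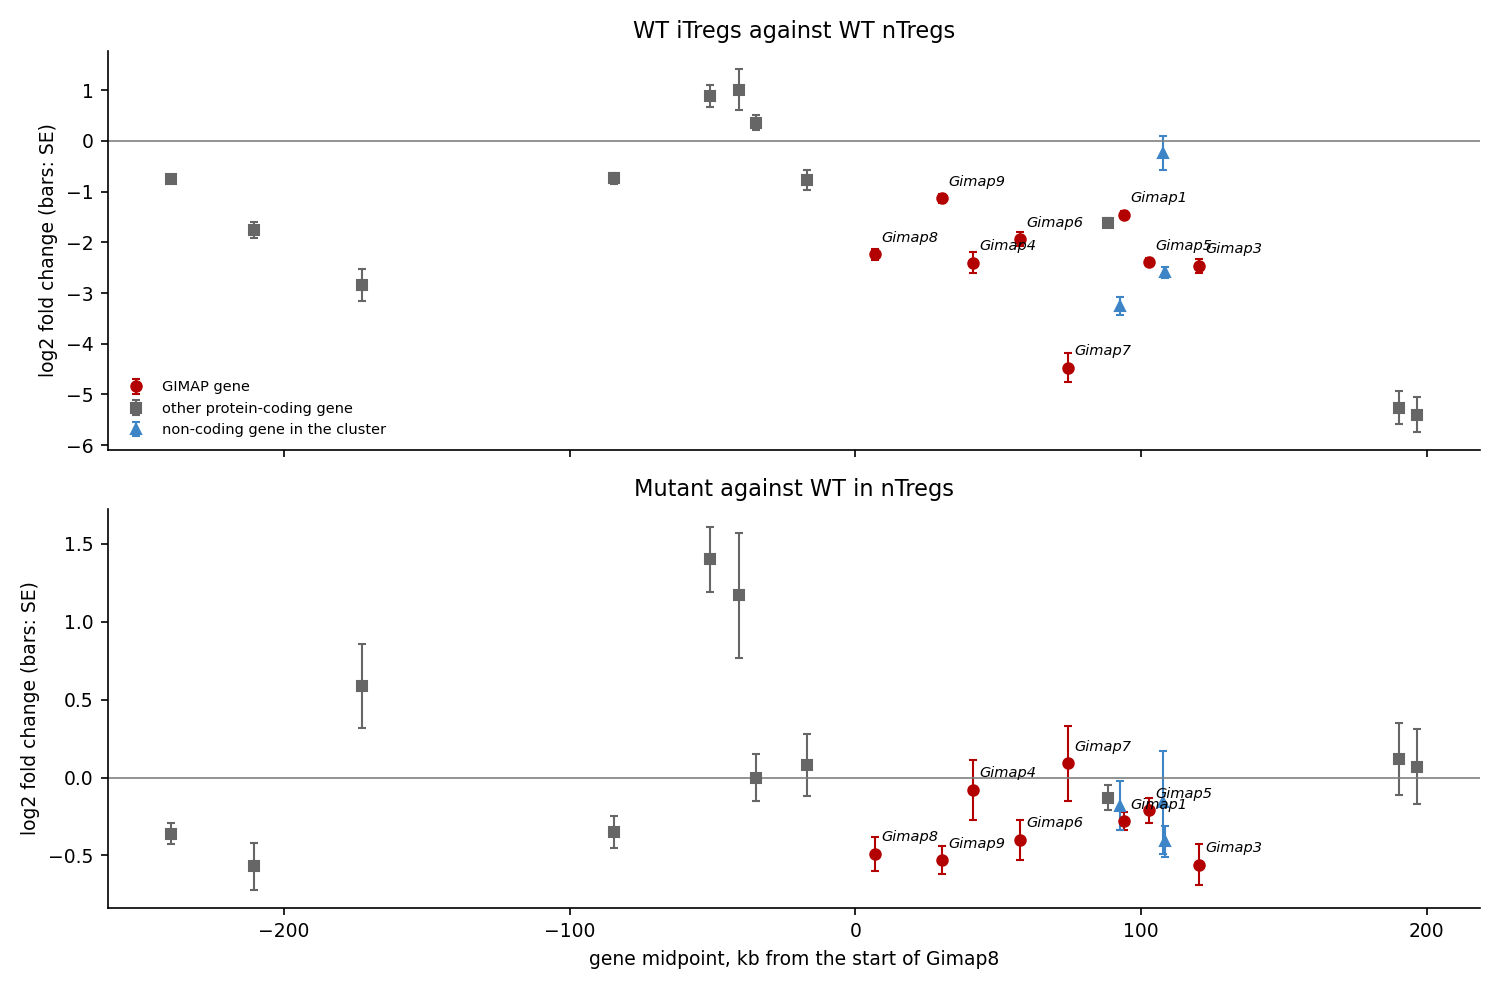
Log2 fold change with its SE against the position of each gene's midpoint, in kb from the start of Gimap8, for WT iTregs against WT nTregs (top) and mutant against WT in nTregs (bottom). At the top the GIMAP genes (circles) all lie below 0 with Tmem176a and Tmem176b lower at the right, and the 3 genes above 0 lie to the left of Gimap8.

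The starts of the 8 genes were compared in the RefSeq promoter table (GRCm38.p6), which holds 9 windows for them, with 250 bases before and 50 after the start and 2 overlapping windows for Gimap8. The windows hold 2 to 8 CpG dinucleotides, beside a median of 7 over the 32851 windows in the table, and Gimap9 alone is above that median. Shown are the windows of Gimap7 (chr6:48718371-48718670, plus strand), the member with the largest fall in iTregs, and of Gimap9 (chr6:48675885-48676184, plus strand), the member with the smallest. Capitals mark matches to the motifs searched on both strands, and the matches in these windows do not overlap.
Gimap7: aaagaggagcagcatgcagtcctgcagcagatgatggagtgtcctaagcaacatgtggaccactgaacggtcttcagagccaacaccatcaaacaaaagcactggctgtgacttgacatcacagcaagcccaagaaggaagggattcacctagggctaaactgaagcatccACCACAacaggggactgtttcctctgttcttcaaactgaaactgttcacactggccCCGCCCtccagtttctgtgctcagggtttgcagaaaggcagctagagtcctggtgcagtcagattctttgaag
Gimap9: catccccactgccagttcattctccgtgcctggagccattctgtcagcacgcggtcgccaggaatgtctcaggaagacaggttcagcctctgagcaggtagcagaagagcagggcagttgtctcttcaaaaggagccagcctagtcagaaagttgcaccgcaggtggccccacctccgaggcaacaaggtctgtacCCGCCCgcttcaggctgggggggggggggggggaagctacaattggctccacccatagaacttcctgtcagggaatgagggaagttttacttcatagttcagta
Gimap7 holds a RUNX-type match (TGTGGT) and a KLF and SP-type match (GGGCGG), both on the opposite strand, and Gimap9 holds a KLF and SP-type match on the opposite strand. The RUNX letters were in 3 of the 9 windows (Gimap1, Gimap4 and Gimap7) and in 16.8% of all windows, and the KLF and SP letters in 2 of 9 and in 35.7%. ETS-type letters (CGGAAG) were in 4 of 9 windows, of Gimap1, Gimap6 and Gimap8, beside 16.9% of all windows. The 2 overlapping windows of Gimap8 hold the same match, so the 4 windows stand for 3 genes. Forkhead-type letters (TAAACA) were in 2 windows, of Gimap3 and Gimap4, beside 13.4%, and TCF and LEF-type letters (CTTTGAT) in none, beside 3.73%. Gimap5 held none of the 5 motifs. A match is a description of letters, and absence from these windows says nothing about the factor.

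Other genes were set beside the family from lists. Of all tested genes, 35.7% were called lower in WT iTregs against WT nTregs. In that comparison 12486 of the 17977 tested genes were called, and 48.6% of the calls were higher. For mutant against WT, 15.6% were lower and 19.3% higher in nTregs, and 11.4% and 14% in iTregs. The 17 other immunity GTPases tested (IRG, GBP and MX proteins, which act against intracellular microbes) were lower in WT iTregs for 16 genes and higher for none, with a median log2 fold change of -2.57. Gbp9 (-3.11 ± 0.11), Gbp8 (-3.44 ± 0.13) and Gbp6 (-4.14 ± 0.18) were the leading ones. In mutant nTregs none of the 17 was called by edgeR, 3 had an unadjusted p below 0.05, all higher, and DESeq2 called 1, also higher. In mutant iTregs 4 were higher and none lower, led by Iigp1 (2.35 ± 0.51) and Mx1 (1.76 ± 0.41), with a median of 0.28.

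The 24 resting T cell genes, such as transcription factors and homing receptors of quiescent T cells, were lower in mutant nTregs for 19 genes and higher for none, with a median of -0.71. Tob1 (-1.22 ± 0.09), Klf3 (-1.18 ± 0.12) and Foxo1 (-0.80 ± 0.09) led that list. In mutant iTregs 12 were lower and none higher (median -0.44), Klf2 (-1.27 ± 0.15) and Klf3 (-0.70 ± 0.12) among them. In WT iTregs against WT nTregs 18 were lower and 4 higher, with a median of -0.66. Il7r, the receptor chain for the survival cytokine IL-7, was among the lower (-3.67 ± 0.23), and Ccr7, the homing receptor to lymph nodes, among the higher (1.68 ± 0.11). All 28 proliferation genes were higher in mutant nTregs (median 1.54) and in WT iTregs against WT nTregs (median 1.99), and 12 were higher in mutant iTregs (median 0.60).

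The 21 genes listed as partners of GIMAP proteins (ATG8 proteins and autophagy genes, the BCL2 family and GSK3) moved in both directions. In mutant nTregs 4 were higher and 4 lower, with a median of -0.02. Of all tested genes, 19.3% were higher and 15.6% lower there, so these counts are near the background. The 3 with the smallest adjusted p were all among the lower. They were Gsk3b, the kinase tied to Gimap5 (-0.53 ± 0.07), and the BCL2 family genes Mcl1 (-0.54 ± 0.08) and Bcl2l11 (-0.80 ± 0.14). In mutant iTregs 2 were higher, the ATG8 gene Gabarapl1 (0.71 ± 0.10) and the lysosomal membrane gene Lamp2 (0.58 ± 0.08). As many, 2, were lower, Bcl2l11 (-0.65 ± 0.14) among them. These counts too are near the background, 14% of all tested genes higher and 11.4% lower. In WT iTregs against WT nTregs 12 were lower and 4 higher (median -0.19), led by Bid (-0.85 ± 0.08), Mcl1 (-0.83 ± 0.08) and the autophagy adaptor gene Sqstm1 (-0.60 ± 0.07).

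Likeness to the family was measured as the root mean square difference, over the 12 libraries, between a gene's centred log2 CPM and the mean of the members. Among the 8 members it was smallest for Gimap8 (0.108) and Gimap5 (0.114), and it was 0.161 to 0.217 for Gimap4, Gimap3 and Gimap6. Gimap1 (0.402), Gimap9 (0.668) and Gimap7 (1.10) were the least alike. Of 9670 other protein-coding genes with a mean of at least 5 CPM, whose median was 1.16, the 5 closest were Ddx58 (0.132), Phf11d (0.161), Itga4 (0.169), Ifi203 (0.182) and Rnf213 (0.190). Ddx58 encodes the cytosolic RNA sensor RIG-I and Itga4 the integrin alpha-4 chain. Ddx58 was at 111 ± 3.26, 88.2 ± 2.51, 22.0 ± 1.39 and 21.7 ± 3.03 CPM in WT nTregs, mutant nTregs, WT iTregs and mutant iTregs. Each of these 5 genes was thus closer to the members' mean than Gimap6, Gimap1, Gimap9 and Gimap7 were. They were picked as the closest of the 9670, so their closeness is no test. Of the 9670 genes, 4090 were closer to that mean than Gimap7, the farthest member.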

How the data were processed

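The 12 RNA-seq libraries came from a TruSeq Stranded mRNA preparation, per the labels' protocols. The deposited values are raw counts of reads per gene, which the authors made with featureCounts 1.5.2 from exons of Ensembl release 87 (GRCm38), reverse-stranded, with reads of several alignments or several genes counted, per the file headers. STAR 2.5.2b and mm10 come from the submitters' processing notes. Of 49671 genes, 49326 were matched to a symbol. Counts were filtered with filterByExpr (17977 genes kept), scaled by TMM and fitted for all 12 libraries and 4 groups with edgeR 4.0.16 in R 4.3.3 (8 residual degrees of freedom), without a replicate term. The 5 contrasts were mutant against WT in each Treg kind, their difference, and iTregs against nTregs in each genotype. Alternatives were RLE scaling, library size alone, other filters, DESeq2 1.42.0, the compared libraries alone, a replicate block and leaving out each library. The fit was tested on simulated counts. All 8 members are named whatever their values. Neighbours within 250 kb are given by count with those called, up to 3 genes a list by smallest adjusted p, and the 5 genes most like the family. The members and lists were chosen with earlier results of these data known. Coding sequences and biotypes came from GENCODE M21, promoters from RefSeq. Total counts were 28707579 to 39886130 per library, and the fewest behind a member were those of Gimap7 in iTregs, 129 to 268.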

Additional observations from a re-analysis of the deposited data

Results flagged for a closer look

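The mutation's effect on Gimap9 passed the test of a difference between the Treg kinds, a call that was lost without some single libraries and under 2 other settings. The iTreg effect minus the nTreg effect was 0.48 ± 0.13 on the log2 scale (SE, edgeR adjusted p = 0.0326), from -0.53 ± 0.09 in nTregs and -0.05 ± 0.09 in iTregs. The mean level was 150 ± 2.55 CPM in WT and 104 ± 6.89 CPM in mutant nTregs (SD, n = 3), and 68.1 ± 6.95 and 65.8 ± 7.31 CPM in iTregs. The call was made in 5 of the 12 fits that left out 1 library (0.41 to 0.58, edgeR adjusted p = 0.0101 to 0.0843 over the 12), and lost without mutant iTreg library 1 or 2, WT iTreg library 2 or 3, mutant nTreg library 2, or WT nTreg library 1 or 2. It was also lost with library size alone (0.34, edgeR adjusted p = 0.0699) and with a replicate block by genotype and number (0.48, edgeR adjusted p = 0.0548).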

How the results depend on the processing

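All 160 values of the members for iTregs against nTregs in WT, and all 160 in the mutant, kept their direction and call under the alternatives. Of 152 values each, 139 did so for the mutant in nTregs, 135 in iTregs and 132 for the difference. The count of members lower in mutant nTregs, 5, was 4 to 6 without single libraries and 4 with a replicate block. The count lower in mutant iTregs, 2, was 0 to 2 without single libraries and 0 with the replicate block, where Gimap1 was -0.25 and Gimap3 -0.38. That block also ended the nTreg call of Gimap6 (-0.32, edgeR adjusted p = 0.0779). The 1 member higher in the difference became 0 with library size alone, 0 with a replicate block by genotype and number, and 0 to 1 without single libraries. Directions turned in nTregs for Gimap7 (-0.22 without mutant library 1) and Gimap4 (0.06 without mutant library 2), within ranges of -0.22 to 0.29 and -0.24 to 0.06. In iTregs they turned without mutant library 4 for Gimap4 (0.07), Gimap6 (0.02) and Gimap9 (0.04), without WT library 1 for Gimap4 (0.03) and Gimap9 (0.02), and without mutant library 1 for Gimap7 (0.0). The ranges were -0.26 to 0.07 for Gimap4, -0.24 to 0.02 for Gimap6, -0.12 to 0.04 for Gimap9 and 0.0 to 0.54 for Gimap7. In the difference, library size alone gave Gimap1 -0.13 and Gimap5 -0.06, and the filter of 1 CPM gave Gimap1 -0.04. Without single libraries the difference ranged from -0.05 to 0.04 for Gimap1, from -0.09 to 0.52 for Gimap7 and from -0.17 to 0.15 for Gimap4. The causes were not tested. Same-numbered libraries of different groups had correlations of -0.06 to 0.05 in their deviations from the group means. Other pairs ran from -0.1 to 0.09, so same-numbered pairs did not stand out. Whether same-numbered libraries share a mouse, culture or batch cannot be read from these values. With library size alone the median of all genes was 0.08 in nTregs, -0.04 in iTregs and -0.14 in the difference, and the share of higher calls went from 55.4% to 65.4%, from 55.2% to 35.5% and from 46.0% to 17.8%, and for mutant iTregs against nTregs from 48.7% to 36.0%. The filter of 1 CPM gave 45% in iTregs and 34.4% in the difference. With library size alone Gimap8 was called in iTregs (-0.33, edgeR adjusted p = 0.0327). Over all genes, 4561 iTreg calls became 1770 to 3036 without mutant library 1 or 2 or WT library 1 or 2, or with the replicate block, and 2392 calls of the difference became 1340 and 1471 with the blocks and 1104 to 1376 without mutant iTreg library 1 or 2, WT iTreg library 1 or 2, or WT nTreg library 1 or 2.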
